A study of Mus musculus with 18 samples.

Results

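Ephrins, their Eph receptors, semaphorins, plexins and neuropilins are cell surface and secreted proteins that steer migrating cells and growing axons. The genes of these families were taken from the count tables by symbol (Epha, Ephb, Efna, Efnb, Sema, Plxn, Nrp1 and Nrp2, protein-coding genes), and all 53 were among the 55335 gene entries. They comprised 8 ephrins, 9 EphA and 5 EphB receptors, 7 secreted class 3 semaphorins, 13 membrane semaphorins, 2 neuropilins and 9 plexins. The rule uses symbols and no measured value. The study asked how FGF2 acts on osteogenic induction of neural crest (NC) cells and whether Yap and Taz take part. Bulk RNA-seq was made from O9-1 cells, a multipotent NC line that was derived from the heads of mouse embryos and is labelled wildtype in every sample. All cells were kept in osteoblast differentiation medium, and each day (d2.5 and d5) had 3 groups of 3 libraries. Ctrl+vehicle cells received scramble siRNA (siCtrl) without FGF2, Ctrl+FGF2 cells received the same siRNA with FGF2, and Y/T dKD+FGF2 cells received siRNA pools against Yap and Taz with FGF2. A knockdown group without FGF2 was not part of the design, so the knockdown was read only in the presence of FGF2. All cells came from 1 line, and nothing in the labels says that replicates were separate cultures, so p-values measure the spread between these libraries, which may be technical. The labels give the day as the batch, and day and batch cannot be told apart.

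Libraries held 10377151 to 14698525 counts on genes (median 12330911). Against Ctrl+FGF2, the targeted genes were lower in the libraries labelled knockdown. Yap1 fell by 0.96 on the log2 scale at d2.5 and by 1.12 at d5, and Wwtr1 (Taz) fell by 0.72 and 0.80. FGF2 also moved both at d2.5, by 0.65 for Wwtr1 and -0.23 for Yap1 (Ctrl+FGF2 over Ctrl+vehicle). Against Ctrl+vehicle, Y/T dKD+FGF2 cells gave -0.06 for Wwtr1 at d2.5 (edgeR adjusted p = 0.122) and -0.89 at d5. For Yap1 they gave -1.18 and -1.05. Of 8 neural crest and mesenchyme markers, Sox10 had 0 counts in every library, while the sum of the list was between 1702 and 2916 CPM (counts scaled to library size). Most of that sum was Prrx1, with group means from 1385 to 2093 CPM. The 7 osteoblast markers were all detected, with sums at d2.5 of 18457 to 18720 CPM in Ctrl+vehicle, 9755 to 10001 CPM in Ctrl+FGF2 and 11444 to 11741 CPM in Y/T dKD+FGF2. The members of the list differed there: Col1a1 had means of 13554, 2344 and 2125 CPM in the same order, while Spp1 had 4291, 7360 and 9271 CPM. Alpl had 124, 0.149 and 0.112 CPM and Bglap 0.739, 0.0996 and 0.0276 CPM, so both were barely detected in the FGF2-treated groups at d2.5. At d5 the sums were 30114 to 32442, 16792 to 18124 and 23107 to 24468 CPM. Most of this was Col1a1, with means of 29855, 15707 and 20520 CPM in the same order. Of 6 markers tested at d2.5, FGF2 called 1 higher and 5 lower, where 67.6% of all genes tested were called. Of the 7 markers, FGF2 called 3 higher and 4 lower at d5, where 47.2% of all genes tested were called. Runx2 had means of 128 CPM in Ctrl+vehicle and 169 CPM in Ctrl+FGF2 at d5, Spp1 1219 and 1677 CPM and Sp7 33.4 and 42.0 CPM. In the same order, Alpl had 152 and 51.5 CPM, Ibsp 107 and 31.2 CPM and Bglap 2.52 and 0.36 CPM. The 8 neuron markers summed to 70.6 to 77.2 CPM in Ctrl+vehicle at d2.5, against 22.1 to 26.1 CPM in Ctrl+FGF2 and 21.3 to 23.0 CPM in Y/T dKD+FGF2. Most of the neuron sum was Stmn2 and Tubb3. Snap25 went the other way (means of 0.178, 0.922 and 2.04 CPM in the same order). Map2 and Syp had group means of 2.40 CPM or less there, and Elavl3, Rbfox3 and Dcx were at 0 counts in all 3 groups. Sums for endothelium, glia, epithelium and blood were at most 7.84 CPM in any library. Whether these shifts take part in the results on guidance genes was not tested. In bulk libraries, fewer cells of a type and less RNA per cell cannot be told apart.

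As background, Eph receptors are receptor tyrosine kinases that bind membrane-anchored ephrins on neighbouring cells, and the contact can signal into both cells. EphA receptors mostly bind the lipid-anchored ephrin-A proteins, and EphB receptors mostly bind the transmembrane ephrin-B proteins. Semaphorins act through plexins, and most class 3 semaphorins need a neuropilin as co-receptor. In the embryo these families keep NC streams apart, and ephrin-B1 is needed for normal coronal sutures in the skull.

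Plexins made up the largest summed level of the families, and 1 gene carried most of it. Counts were scaled to CPM within each day and divided by exon length (CPM per kb) to compare genes. Over all 18 libraries, Plxnb2 had the highest mean level at 80.4 CPM per kb, followed by Plxna1 at 27.3, Ephb4 at 21.9, Efna5 at 20.5, Epha2 at 19.4 and Nrp2 at 18.9 CPM per kb. The leading semaphorin depended on the group. In class 3, Sema3c led in Ctrl+vehicle on both days (11.3 and 14.2 CPM per kb), Sema3a in both FGF2-treated groups at d2.5 (13.4 and 14.9 CPM per kb) and Sema3f in both at d5 (14.0 and 7.50 CPM per kb). Among membrane semaphorins, Sema4c led in Ctrl+vehicle at d2.5 (7.15 CPM per kb), and Sema5a had the highest mean in the other groups (5.30 to 14.8 CPM per kb). In Ctrl+FGF2 at d2.5 this lead was within the spread of the libraries. There Sema5a held 29.6% to 32.2% of the membrane semaphorin sum per kb, Sema4c 28.6% to 31.1% and Sema4b 28.1% to 31.5%. At d2.5, Ctrl+vehicle cells had a plexin sum of 198 ± 2.89 CPM per kb (SD, n = 3), against 132 ± 0.48 CPM per kb with FGF2 and 119 ± 2.13 CPM per kb with FGF2 and the knockdown. At d5 the sums were 117 ± 2.16, 118 ± 0.85 and 114 ± 2.27 CPM per kb in the same order. The EphB sum at d2.5 went from 36.7 ± 0.26 CPM per kb in Ctrl+vehicle to 23.0 ± 1.36 in Ctrl+FGF2. Among EphA receptors the leading gene differed between the days: Epha2 held 82.2% to 83.4% of the per-kb sum in Ctrl+vehicle at d2.5 and 27.5% to 28.6% at d5, when Epha3 held 56.8% to 57.4%.

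**Figure D1:**
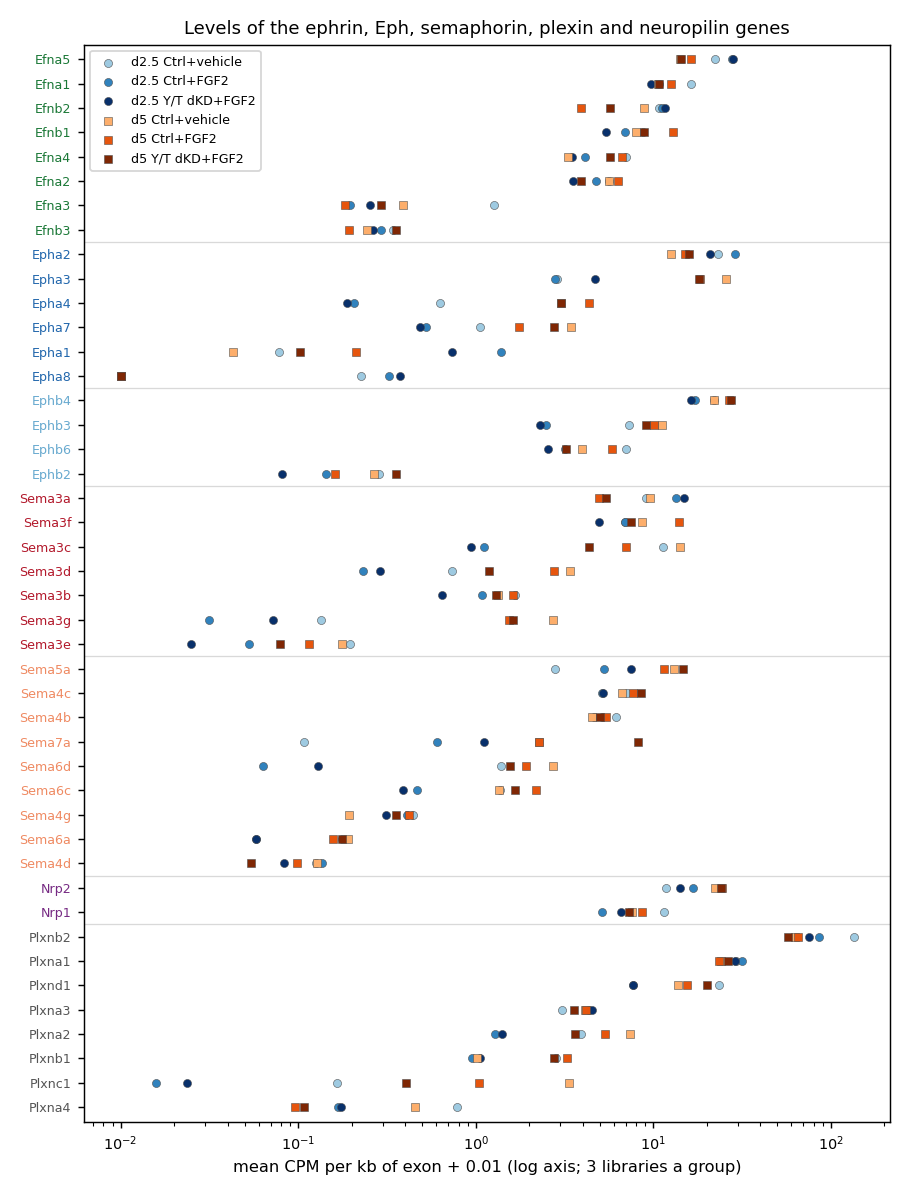
Mean CPM per kb of exon plus 0.01 (log axis) of the 44 members that passed the expression filter in a fit of either day, with circles for d2.5, squares for d5 and 1 colour a group (3 libraries each). Plxnb2 lies farthest right in every group, and Epha8 sits at the axis offset on d5, where no library had a count.

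The FGF2 comparison (Ctrl+FGF2 against Ctrl+vehicle) asks what FGF2 does in cells without the knockdown. At d2.5, most guidance genes were lower with FGF2. Of 43 members that passed the filter on low counts, 26 were called lower and 9 higher (edgeR quasi-likelihood test, Benjamini-Hochberg adjusted p under 0.05), 81.4% in all, against 67.6% of all genes tested (34.1% lower and 33.5% higher). Of these, 20 members were called with a change of at least 2-fold, 46.5% of those tested, against 13.9% of all genes tested. The median log2 fold change of the members was -0.60, against 0.00 over all genes tested. At d5 the balance was even: 17 of 42 members were called higher and 14 lower (73.8%, against 47.2% of all genes tested), 7 of them by at least 2-fold (16.7% against 5.8%), and the median log2 fold change was 0.01. Of all genes tested at d5, 23.5% were higher and 23.7% lower. The libraries of both groups did not overlap for 35 members at d2.5 (70.5% of all genes tested) and for 31 at d5 (54.3% of all genes tested).

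**Figure D2:**
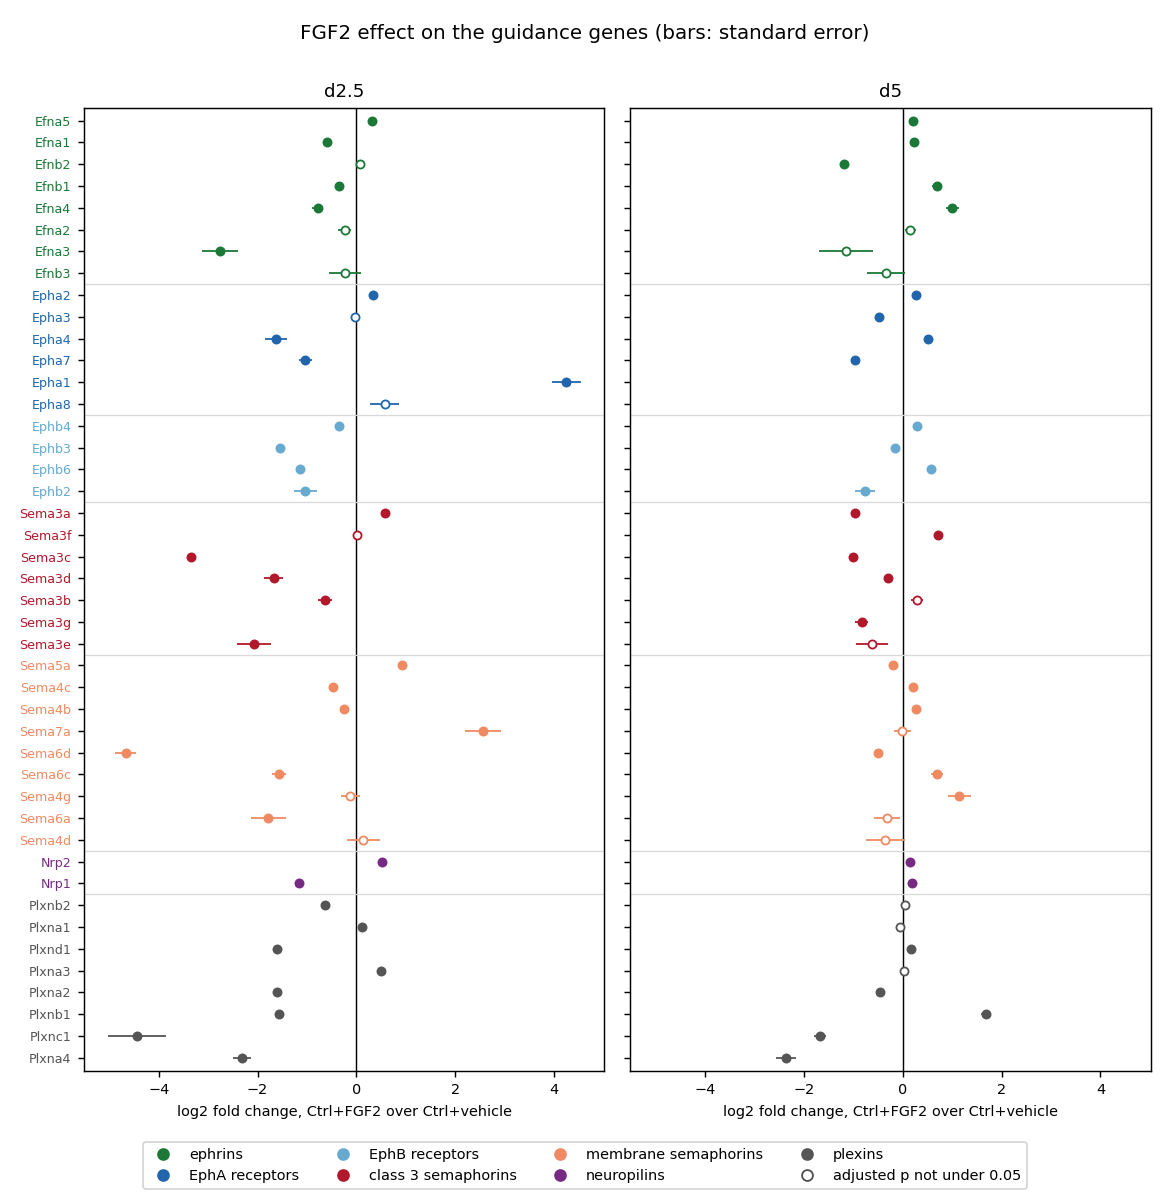
Log2 fold change of Ctrl+FGF2 over Ctrl+vehicle for each tested member at d2.5 (left) and d5 (right), ordered by family, with bars for the standard error, filled points for adjusted p under 0.05 and open points for the rest. At d2.5 26 filled points lie left of 0 and 9 right of it, and at d5 14 lie left and 17 right.

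The effect of FGF2 differed between the days for 33 of 44 members tested in the joint fit of both days, 25 with a higher log2 fold change at d5 and 8 with a lower one (75.0%, against 60.9% of all genes tested, 31.8% higher and 29.1% lower). In all, 14 members were called in opposite directions on the 2 days. Of these, 12 were lower with FGF2 at d2.5 and higher at d5, namely Efna1, Efna4, Efnb1, Epha4, Ephb4, Ephb6, Nrp1, Plxnb1, Plxnd1, Sema4b, Sema4c and Sema6c. Sema3a and Sema5a went the other way, higher at d2.5 and lower at d5. Another 9 members were lower on both days (Epha7, Ephb2, Ephb3, Plxna2, Plxna4, Plxnc1, Sema3c, Sema3d and Sema6d), and 3 were higher on both (Efna5, Epha2 and Nrp2). The shares of all genes tested with these 2-day patterns were not counted, so these counts have no background beside them. Among these members, the d5 calls of Efna1, Ephb3, Nrp2, Plxnd1, Sema3d and Sema4c were each lost in at least 1 fit that left out a library.

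The knockdown comparison (Y/T dKD+FGF2 against Ctrl+FGF2) asks what changes when Yap and Taz are reduced in FGF2-treated cells. At d2.5 it called 11 of 43 members lower and 6 higher (39.5%, against 24.5% of all genes tested, 13.6% lower and 10.8% higher), and 1 of them, Sema6d, changed by at least 2-fold (2.33% of those tested, against 0.592% of all genes tested). That call was lost in the fits without Ctrl+FGF2 replicate 2 or 3 or Y/T dKD+FGF2 replicate 2 or 3. At d5 it called 18 of 42 lower and 7 higher (59.5%, against 31.7% of all genes tested, 16.1% lower and 15.6% higher), with 4 members past 2-fold (9.52%, against 3.19% of all genes tested): Sema7a and Ephb2 higher, and Plxnc1 and Sema3d lower. The median log2 fold change was -0.11 at d2.5 and -0.19 at d5, against 0.00 over all genes on both days. Libraries did not overlap between the groups for 23 members at d2.5 (39.4% of all genes tested) and 28 at d5 (44.9%). Efna2, Efnb1, Ephb6, Plxnb2 and Sema3f were lower on both days, Sema5a and Sema7a were higher on both, and Ephb2, Nrp1, Plxna1 and Sema6d were called in opposite directions. The shares of all genes tested with these patterns were not counted. The d2.5 calls of Efna2, Ephb2, Ephb6 and Sema6d and the d5 call of Sema6d were each lost in at least 1 fit that left out a library. The knockdown effect differed between the days for 16 of 44 members, 8 in each direction (36.4%, against 20.9% of all genes tested, 11.6% higher and 9.35% lower). The FGF2 and knockdown comparisons of a day share the Ctrl+FGF2 libraries, so their values are given side by side and not related to each other. Against Ctrl+vehicle, Y/T dKD+FGF2 cells had 30 members lower and 9 higher at d2.5 (69.8% of all genes tested were called, 35.7% lower and 34.1% higher), and 18 lower and 10 higher at d5 (41.8%, with 21.1% lower and 20.7% higher). In that comparison 39 members had no overlap at d2.5 (71.5% of all genes tested) and 32 at d5 (51.9%).

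**Figure D3:**
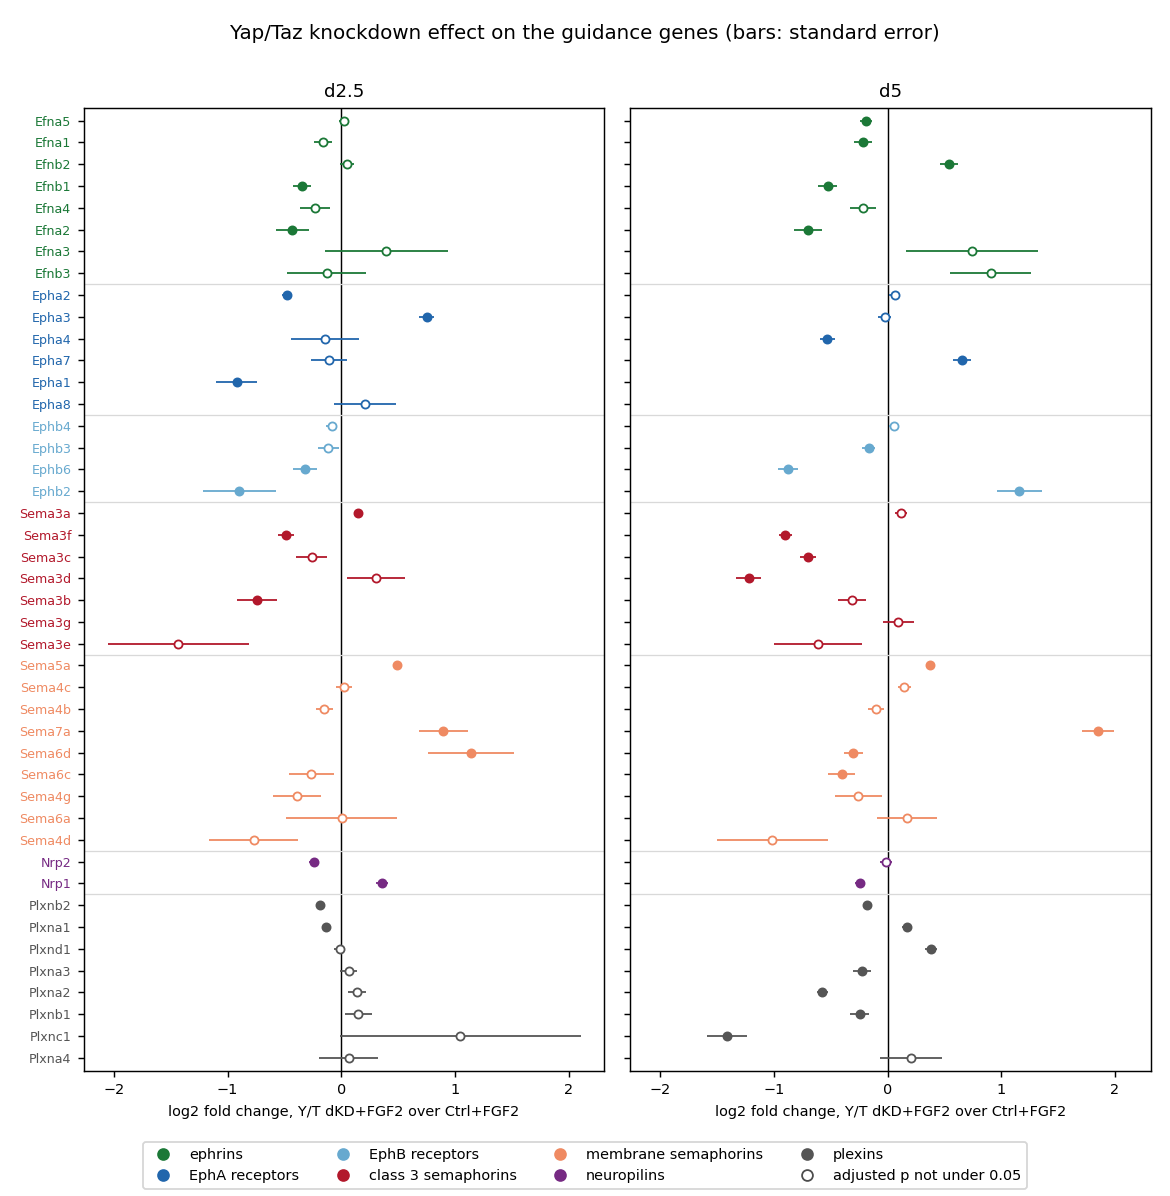
Log2 fold change of Y/T dKD+FGF2 over Ctrl+FGF2 for each tested member at d2.5 (left) and d5 (right), with bars for the standard error and filled points for adjusted p under 0.05. Sema7a at d5 lies farthest right of the filled points (1.85), and Plxnc1 at d5 farthest left (-1.41).

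Among the ephrins, Efna4, Efna3 and Efnb2 changed most with FGF2. Efna4, an ephrin-A ligand, had 10.9, 11.5 and 11.5 CPM in the Ctrl+vehicle libraries at d2.5 and 7.13, 6.59 and 5.96 CPM in Ctrl+FGF2. At d5 the order was turned, with 5.01, 5.36 and 5.37 CPM in Ctrl+vehicle and 10.9, 9.60 and 11.3 CPM in Ctrl+FGF2. The groups did not overlap on either day, and the log2 fold changes were -0.78 ± 0.11 (SE, adjusted p = 3.08e-07) at d2.5 and 1.01 ± 0.12 (SE, adjusted p = 3.27e-06) at d5. Efnb2, the ephrin-B2 ligand of Ephb4, was at 63.5, 83.1 and 74.6 CPM in Ctrl+vehicle and 74.9, 78.2 and 78.5 CPM in Ctrl+FGF2 at d2.5, where the groups overlapped. At d5 it was at 65.6, 57.5 and 59.3 CPM without and 26.2, 24.8 and 29.1 CPM with FGF2 (-1.19 ± 0.08, adjusted p = 1.49e-09). Its FGF2 effect differed between the days by -1.27 ± 0.11 (SE, adjusted p = 2.63e-11). Efnb1, the ephrin-B1 gene on the X chromosome, was lower with FGF2 at d2.5 (-0.35 ± 0.07, adjusted p = 4.92e-05) and higher at d5 (0.69 ± 0.09, adjusted p = 4.27e-06). Efna3 was at 2.14, 4.58 and 2.40 CPM in Ctrl+vehicle at d2.5 and 0.751, 0.388 and 0.213 CPM in Ctrl+FGF2, with 18 counts over the Ctrl+FGF2 libraries against 124 over Ctrl+vehicle, a 6.94-fold lower level (95% exact interval 4.22 to 12.1, counting error only). Efna5, the most abundant ephrin per kb in every group, was higher with FGF2 on both days, by 0.32 and 0.21 on the log2 scale. Efna1 fell by 0.60 on the log2 scale at d2.5 (adjusted p = 1.23e-08).

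With the Yap/Taz knockdown, 2 of 8 ephrins were lower at d2.5 (Efna2 and Efnb1) and none higher, near the 24.5% of all genes called. At d5 Efna1, Efna2, Efna5 and Efnb1 were lower and Efnb2 higher, where 31.7% of all genes were called. Efnb1 was at 19.2, 19.5 and 17.4 CPM in Y/T dKD+FGF2 at d2.5 against 25.5, 22.3 and 23.6 CPM in Ctrl+FGF2, and at 31.2, 32.9 and 27.9 CPM against 47.4, 38.6 and 47.5 CPM at d5. Neither day showed an overlap, and the log2 fold changes were -0.35 ± 0.08 (SE, adjusted p = 0.00118) and -0.53 ± 0.09 (SE, adjusted p = 1.16e-04). For Efna2 the log2 fold changes were -0.43 ± 0.14 (SE, adjusted p = 0.0269) at d2.5 and -0.70 ± 0.12 (SE, adjusted p = 2.47e-04) at d5. Efnb2 went the other way at d5, to 34.6, 40.2 and 41.8 CPM, above all Ctrl+FGF2 libraries and below all Ctrl+vehicle libraries (0.54 ± 0.08, adjusted p = 6.28e-05). Efna5 was lower at d5 (-0.19 ± 0.05, adjusted p = 0.00837). The d2.5 call of Efna2 was lost in fits without Ctrl+FGF2 replicate 2 or 3 or Y/T dKD+FGF2 replicate 1 or 3 (adjusted p up to 0.139) and with DESeq2 (0.0714). The d5 calls of Efna1, higher with FGF2 (0.23) and lower with the knockdown (-0.21), were lost without Ctrl+FGF2 replicate 1 or 2 or Ctrl+vehicle replicate 1 or 2 for the first (up to 0.108), without any of the 6 FGF2-treated libraries for the second (up to 0.145), and with DESeq2 for both (0.120 and 0.182).

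Epha1 had the largest rise of all members with FGF2 at d2.5. EphA receptors bind ephrin-A ligands, and Epha1 was at 0.222, 0.417 and 0.166 CPM in Ctrl+vehicle at d2.5, 5.78, 5.66 and 4.75 CPM in Ctrl+FGF2 and 2.44, 3.31 and 2.76 CPM in Y/T dKD+FGF2. The 3 groups did not overlap, with 11 counts over Ctrl+vehicle and 217 over Ctrl+FGF2, a 19.6-fold rise (95% exact interval 10.7 to 39.8, counting error only). In the model its log2 fold changes were 4.25 ± 0.29 (SE, adjusted p = 3.87e-14) for FGF2 and -0.92 ± 0.18 (SE, adjusted p = 3.06e-04) for the knockdown. At d5 it did not pass the filter, with 5 counts over the Ctrl+vehicle libraries, 29 over Ctrl+FGF2 and 13 over the knockdown. Epha2, the most abundant EphA receptor per kb at d2.5, was also higher with FGF2 and lower in the knockdown at d2.5, with 108, 111 and 104 CPM in Ctrl+vehicle, 133, 141 and 133 CPM in Ctrl+FGF2 and 94.4, 97.4 and 100.3 CPM in Y/T dKD+FGF2. Its log2 fold changes were 0.33 ± 0.04 (SE, adjusted p = 1.36e-08) for FGF2 and -0.48 ± 0.04 (SE, adjusted p = 5.99e-10) for the knockdown. At d5 Epha2 was higher with FGF2 (0.27 ± 0.05, adjusted p = 4.39e-04), while the knockdown gave 0.06 (adjusted p = 0.402), and the knockdown effect differed between the days by 0.54 ± 0.07 (SE, adjusted p = 4.97e-07). Epha2 was outside the rule for named genes and was picked after its values were seen.

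The DNA before the starts of these 2 receptors is shown because both hold the letters of the core site of Tead factors, through which Yap and Taz reach DNA. The 250 bases before the RefSeq start (GRCm38.p6) are given 5′ to 3′ on the gene's strand, with CATTCC or its reverse complement GGAATG in capitals. The Epha1 window is chr6:42373269-42373518 on the minus strand, with 1 copy whose first base is at -161. The Epha2 window is chr4:141300971-141301220 on the plus strand, with copies at -243 and -56.
Epha1: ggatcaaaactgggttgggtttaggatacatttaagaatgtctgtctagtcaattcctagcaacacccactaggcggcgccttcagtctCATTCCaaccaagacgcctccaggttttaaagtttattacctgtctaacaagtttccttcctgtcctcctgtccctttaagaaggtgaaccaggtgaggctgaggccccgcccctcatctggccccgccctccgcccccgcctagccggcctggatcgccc
Epha2: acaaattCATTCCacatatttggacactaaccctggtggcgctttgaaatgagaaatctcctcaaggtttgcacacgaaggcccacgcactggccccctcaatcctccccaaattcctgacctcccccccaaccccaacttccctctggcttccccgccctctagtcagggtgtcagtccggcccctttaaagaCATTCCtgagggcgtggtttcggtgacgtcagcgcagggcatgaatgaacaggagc
Of the 61 windows found for 47 members, 7 (11.5%) held CATTCC or GGAATG, against 12.6% of all 32851 windows of this length. The other members with such a window were Epha3, Efnb2, Plxnb1, Plxnd1 and Sema4a. In the knockdown, Epha3 was higher at d2.5, Efnb2 and Plxnd1 were higher at d5, Plxnb1 was lower at d5, and Sema4a was not tested. Whether the letters bear on any change was not tested. Searched on both strands, the letters TGANTCA, the AP-1 site, were in 3 member windows (4.9%, against 6.7% of all windows), those of Sema4c, Sema4d and Sema6b, and no member window held both sets of letters. These matches are letters only, and binding was not measured here.

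Of the other EphA receptors, Epha3, Epha4 and Epha7 changed with FGF2, the knockdown or both. Levels of the 2 days are scaled separately and stand side by side only. Epha3, a receptor of ephrin-A ligands, was at 24.97, 25.00 and 24.4 CPM in Ctrl+vehicle, 24.4, 23.6 and 24.5 CPM in Ctrl+FGF2 and 42.9, 38.1 and 41.2 CPM in Y/T dKD+FGF2 at d2.5. Only the knockdown libraries stood apart (0.75 ± 0.06, adjusted p = 5.50e-10). At d5 its values were 229.7, 221 and 216 CPM in Ctrl+vehicle, 146, 176 and 156 CPM in Ctrl+FGF2 and 160.5, 151 and 159 CPM in Y/T dKD+FGF2. There it fell by 0.48 on the log2 scale with FGF2 (adjusted p = 1.29e-06), and the knockdown effect was -0.03 (adjusted p = 0.768). Epha4, which binds ligands of both ephrin classes, fell with FGF2 from 5.84, 4.10 and 4.97 CPM to 0.976, 2.09 and 1.70 CPM at d2.5 and rose from 24.3, 25.1 and 23.7 CPM to 37.7, 34.03 and 33.4 CPM at d5. These were log2 fold changes of -1.64 ± 0.22 (SE, adjusted p = 1.19e-07) and 0.52 ± 0.07 (SE, adjusted p = 5.71e-06). In the knockdown Epha4 was at 1.48, 1.74 and 1.09 CPM at d2.5, where it was not called. At d5 it was at 23.9, 25.3 and 23.3 CPM in the knockdown (-0.53 ± 0.07, adjusted p = 8.67e-06). Epha7 was lower with FGF2 by similar amounts on both days (-1.04 and -0.97), and higher with the knockdown at d5 (0.65 ± 0.08, adjusted p = 4.21e-06).

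All 4 EphB receptors with enough counts were lower with FGF2 at d2.5 (34.1% of all genes tested were lower). Ephb3 fell most, from 53.4, 44.5 and 47.2 CPM to 16.7, 16.7 and 16.03 CPM (-1.55 ± 0.07, adjusted p = 4.94e-18). Ephb6, a receptor without kinase activity, went from 24.2, 27.7 and 28.00 CPM to 11.2, 12.02 and 12.8 CPM (-1.14 ± 0.09, adjusted p = 5.40e-13). Ephb4, the ephrin-B2 receptor and the most abundant EphB receptor per kb in every group, went from 101, 105 and 101 CPM to 86.7, 73.4 and 79.4 CPM (-0.36 ± 0.05, adjusted p = 1.29e-07). At d5 Ephb6 and Ephb4 were instead higher with FGF2, Ephb6 at 15.2, 15.6 and 13.8 CPM without and 20.7, 23.3 and 22.4 CPM with it (0.57 ± 0.08, adjusted p = 2.48e-05). In the knockdown at d5, Ephb6 stood at 11.3, 12.5 and 12.3 CPM, below both other groups (-0.88 ± 0.09, adjusted p = 5.30e-07). Ephb2, at low levels, was lower with FGF2 on both days and higher with the d5 knockdown: 2.08, 2.23 and 1.44 CPM in Ctrl+FGF2 against 4.34, 3.89 and 4.77 CPM in Y/T dKD+FGF2 (1.16 ± 0.20, adjusted p = 2.01e-04). Its knockdown effect differed between the days by 2.05 ± 0.38 (SE, adjusted p = 1.83e-04).

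Several EphB calls were small or rested on single libraries. At d2.5, the knockdown calls of Ephb2 (-0.90, overlapping groups) and Ephb6 (-0.32) were lost with DESeq2 (adjusted p = 0.102 and 0.0940). They were also lost without Ctrl+FGF2 replicate 1 or 3, Ctrl+vehicle replicate 3 or Y/T dKD+FGF2 replicate 1 or 3 for Ephb2 (up to 0.179), and without Ctrl+FGF2 replicate 2 or 3 or Y/T dKD+FGF2 replicate 2 or 3 for Ephb6 (up to 0.129). The d5 calls of Ephb3 were -0.15 for FGF2 and -0.16 for the knockdown, and DESeq2 lost both (0.0666 and 0.0995). The first was lost without Ctrl+FGF2 replicate 1 or 3 or Ctrl+vehicle replicate 2 or 3 (up to 0.214) and the second without Ctrl+FGF2 replicate 1 or 2 or any knockdown library (up to 0.124).

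Class 3 semaphorins are secreted guidance cues, and Sema3c and Sema3a moved in opposite directions with FGF2 at d2.5. Sema3c, which guides NC cells into the cardiac outflow tract, was at 77.3, 87.6 and 77.1 CPM in Ctrl+vehicle and 8.34, 6.36 and 9.01 CPM in Ctrl+FGF2, a log2 fold change of -3.35 ± 0.08 (SE, adjusted p = 4.33e-25). Sema3a, a repellent of axons that also acts on bone cells, was at 119, 129 and 128 CPM in Ctrl+vehicle and 178, 188 and 192 CPM in Ctrl+FGF2 (0.57 ± 0.04, adjusted p = 4.49e-14). Neither gene had overlapping groups. As a share of the class 3 sum per kb, Sema3a went from 29.5% to 30.9% in Ctrl+vehicle to 58.2% to 59.5% in Ctrl+FGF2, and Sema3c from 36.2% to 39.8% to 3.9% to 5.3%. At d5 both were lower with FGF2, Sema3c at 108, 97.1 and 97.8 CPM without and 49.01, 51.5 and 49.7 CPM with it (-1.01 ± 0.06, adjusted p = 7.21e-10), and Sema3a at 142, 126 and 132 CPM without and 72.4, 66.4 and 67.2 CPM with it (-0.96 ± 0.05, adjusted p = 1.21e-10). Sema3f was the 1 class 3 member higher with FGF2 at d5, 43.8, 43.2 and 46.7 CPM without and 73.8, 72.9 and 71.8 CPM with it (0.71 ± 0.06, adjusted p = 1.58e-08), while at d2.5 the groups overlapped (0.02). Sema3d, Sema3e and Sema3b were lower with FGF2 at d2.5, by -1.68, -2.07 and -0.63 on the log2 scale. Sema3g was tested only at d5, where it was lower with FGF2 (-0.83 ± 0.13, adjusted p = 3.25e-05), and at d2.5 it had 23 counts over Ctrl+vehicle and 4 over Ctrl+FGF2. The d5 call of Sema3d (-0.29) was lost without Ctrl+FGF2 replicate 1 (adjusted p = 0.0746).

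The knockdown lowered 3 of the 7 class 3 semaphorins at d5 and raised none (16.1% of all genes tested were lower). Sema3d was at 20.3, 27.4 and 23.1 CPM in Ctrl+FGF2 and 10.7, 9.65 and 10.1 CPM in Y/T dKD+FGF2 (-1.22 ± 0.11, adjusted p = 1.09e-07). Sema3f, which signals through Nrp2, fell to 41.6, 39.6 and 35.7 CPM, below every Ctrl+vehicle library as well (-0.90 ± 0.06, adjusted p = 1.89e-09). Sema3c fell to 34.8, 28.6 and 29.1 CPM (-0.70 ± 0.07, adjusted p = 8.12e-07). At d5 Ctrl+vehicle cells had a class 3 sum of 39.9 ± 1.63 CPM per kb (SD, n = 3), against 31.96 ± 0.22 CPM per kb with FGF2 and 21.4 ± 0.80 CPM per kb with FGF2 and the knockdown. At d2.5 the knockdown lowered Sema3f (-0.49 ± 0.07, adjusted p = 3.57e-06) and Sema3b (-0.74 ± 0.18, adjusted p = 0.00213). It raised Sema3a there by 0.15 on the log2 scale, a call lost without Ctrl+FGF2 replicate 1 (adjusted p = 0.0572).

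**Figure D4:**
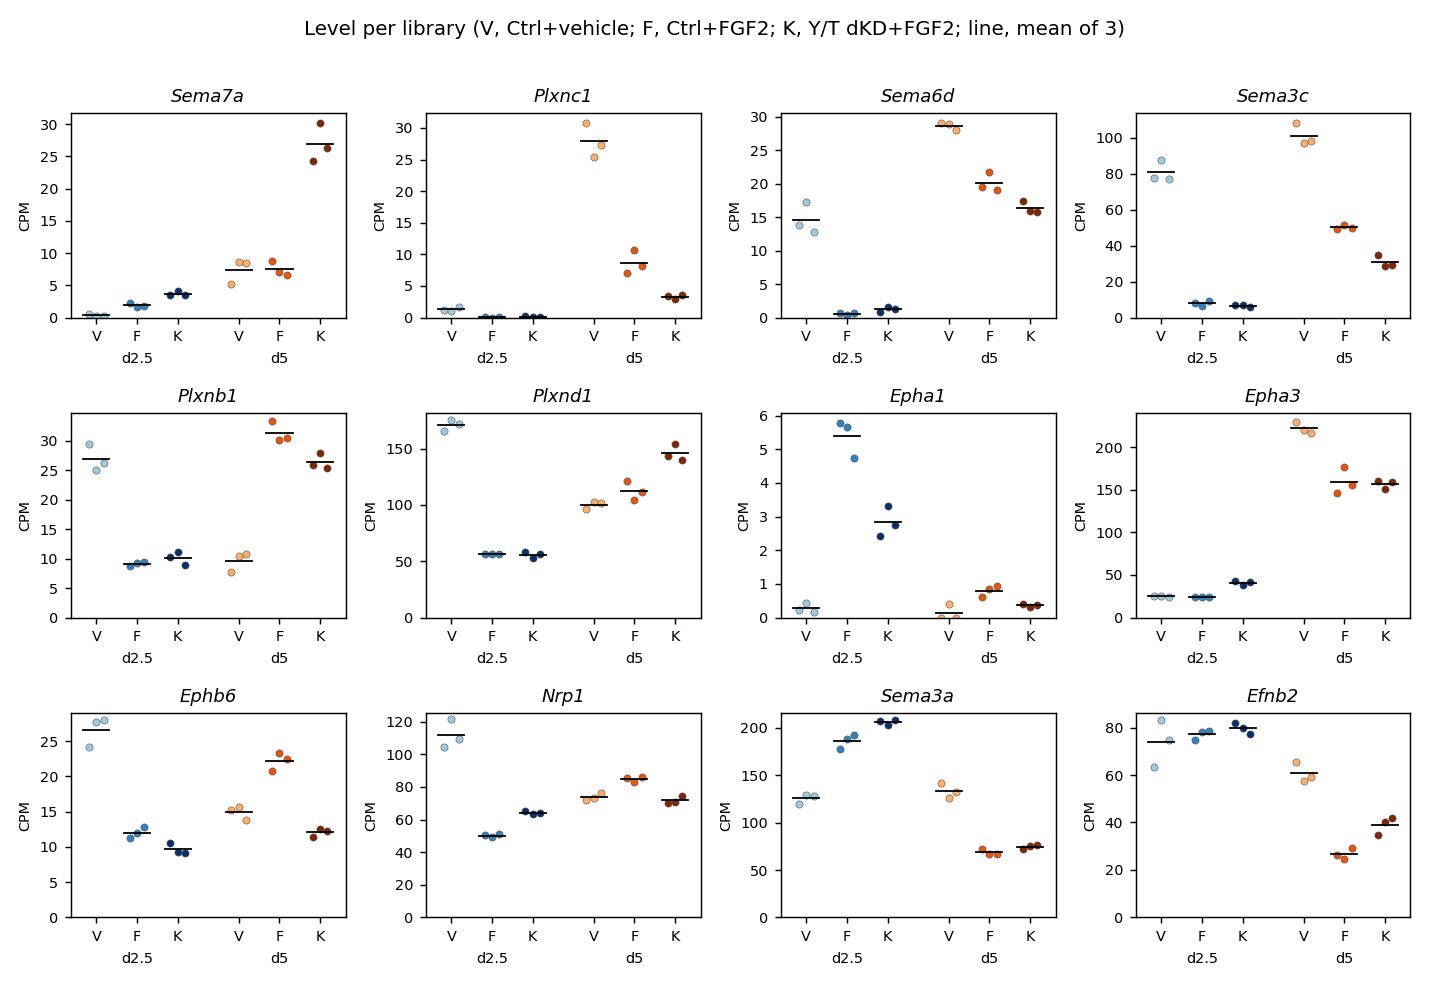
CPM in every library (points) and the mean of 3 (lines) for 12 members in Ctrl+vehicle (V), Ctrl+FGF2 (F) and Y/T dKD+FGF2 (K) at d2.5 and d5, on linear axes from 0. Sema7a is highest in the d5 knockdown (24.3 to 30.2 CPM), where Plxnc1 is at 2.96 to 3.53 CPM, and Plxnb1 is lower with FGF2 at d2.5 and higher at d5.

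Among membrane semaphorins, Sema7a and Sema6d changed most with FGF2 at d2.5. Sema7a is a lipid-anchored semaphorin whose receptors are Plxnc1 and integrins. At d2.5 it was at 0.591, 0.208 and 0.166 CPM in Ctrl+vehicle, 2.33, 1.71 and 1.84 CPM in Ctrl+FGF2 and 3.48, 4.05 and 3.43 CPM in Y/T dKD+FGF2. The 3 groups did not overlap, and the log2 fold changes were 2.56 ± 0.36 (SE, adjusted p = 3.00e-07) for FGF2 and 0.90 ± 0.22 (SE, adjusted p = 0.00272) for the knockdown. At d5 it was at 5.19, 8.70 and 8.48 CPM in Ctrl+vehicle, 8.75, 7.14 and 6.62 CPM in Ctrl+FGF2 and 24.3, 30.2 and 26.4 CPM in Y/T dKD+FGF2. Only the knockdown libraries stood apart there (1.85 ± 0.14, adjusted p = 1.86e-08), while the FGF2 effect was -0.01 (adjusted p = 0.963). The FGF2 effect thus differed between the days by -2.59 ± 0.47 (SE, adjusted p = 1.87e-05).

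Plxnc1, the Sema7a receptor, was lower in the d5 knockdown. It was at 30.8, 25.5 and 27.4 CPM in Ctrl+vehicle, 7.10, 10.7 and 8.24 CPM in Ctrl+FGF2 and 3.38, 2.96 and 3.53 CPM in Y/T dKD+FGF2 at d5, with no overlap between groups. The log2 fold changes were -1.67 ± 0.12 (SE, adjusted p = 5.12e-09) for FGF2 and -1.41 ± 0.17 (SE, adjusted p = 6.21e-06) for the knockdown. At d2.5 it was near the limit of detection, with 51 counts over Ctrl+vehicle, 2 over Ctrl+FGF2 and 4 over Y/T dKD+FGF2. With FGF2 it was 25.7-fold lower there (95% exact interval 6.76 to 218, counting error only), and 2 against 4 counts allow no reading of the knockdown. The 250 bases before both starts are shown because ligand and receptor moved apart in the knockdown at d5. Both windows are without CATTCC and GGAATG, so no base is in capitals. They lie at chr9:57939862-57940111 on the plus strand for Sema7a and chr10:94944846-94945095 on the minus strand for Plxnc1 (RefSeq, GRCm38.p6).
Sema7a: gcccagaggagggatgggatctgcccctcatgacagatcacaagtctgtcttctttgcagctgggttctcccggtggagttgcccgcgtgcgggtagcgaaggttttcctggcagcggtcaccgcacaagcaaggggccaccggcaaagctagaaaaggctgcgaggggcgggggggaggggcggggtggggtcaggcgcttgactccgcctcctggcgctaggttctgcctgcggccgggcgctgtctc
Plxnc1: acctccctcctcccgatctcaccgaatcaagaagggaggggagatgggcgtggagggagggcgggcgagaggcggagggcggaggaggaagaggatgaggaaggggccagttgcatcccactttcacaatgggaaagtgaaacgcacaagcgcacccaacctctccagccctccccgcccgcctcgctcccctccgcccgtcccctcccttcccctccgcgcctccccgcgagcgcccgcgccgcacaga

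Sema6d, a transmembrane semaphorin that binds Plxna1, was far lower with FGF2 at d2.5. It was at 13.9, 17.2 and 12.8 CPM in Ctrl+vehicle and 0.676, 0.388 and 0.638 CPM in Ctrl+FGF2 at d2.5 (-4.66 ± 0.21, adjusted p = 1.29e-18). At d5 it was at 29.1, 28.97 and 28.03 CPM without and 19.5, 21.8 and 19.1 CPM with FGF2 (-0.51 ± 0.07, adjusted p = 1.96e-05), a difference between the days of 4.13 ± 0.23 (SE, adjusted p = 2.02e-15). The knockdown gave 0.870, 1.57 and 1.34 CPM at d2.5 (1.14 ± 0.38, adjusted p = 0.0260) and 17.4, 15.96 and 15.8 CPM at d5 (-0.30 ± 0.08, adjusted p = 0.00780). The first call was lost without Ctrl+FGF2 replicate 2 or 3 or Y/T dKD+FGF2 replicate 2 or 3 (adjusted p up to 0.118), and the second without Ctrl+FGF2 replicate 2 (0.0525).

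Sema5a, the membrane semaphorin with the highest mean level per kb over all 18 libraries, was higher in the knockdown on both days. It was at 52.00, 54.2 and 50.6 CPM in Ctrl+vehicle, 103, 97.3 and 96.7 CPM in Ctrl+FGF2 and 141, 136 and 139.8 CPM in Y/T dKD+FGF2 at d2.5. All 3 groups were apart (0.92 ± 0.05, adjusted p = 1.12e-17 for FGF2 and 0.49 ± 0.04 (SE, adjusted p = 2.18e-10) for the knockdown). At d5 the values were 237, 247 and 249 CPM, 214, 211 and 215 CPM and 282, 274 and 273 CPM in the same order, so that FGF2 lowered it (-0.20 ± 0.04, adjusted p = 1.99e-04) and the knockdown raised it (0.37 ± 0.04, adjusted p = 2.82e-07). Sema6c was lower with FGF2 at d2.5 (-1.57 ± 0.15, adjusted p = 5.36e-11) and higher at d5 (0.69 ± 0.12, adjusted p = 1.67e-04). Sema4b and Sema4c, relatives of the plexin-B ligand Sema4d, had the same turn with smaller log2 fold changes, -0.26 and -0.47 at d2.5 and 0.26 and 0.22 at d5. Sema4g was higher with FGF2 at d5 (1.15 ± 0.24, adjusted p = 6.22e-04), and Sema6a was lower at d2.5 (-1.78 ± 0.35, adjusted p = 4.95e-05). The d5 call of Sema4c was lost without Ctrl+FGF2 replicate 2 (adjusted p = 0.0525) and with DESeq2 (0.0593). The d5 knockdown call of Sema6c (-0.40) was lost without Ctrl+FGF2 replicate 3 or Y/T dKD+FGF2 replicate 1 or 3 (up to 0.101) and with DESeq2 (0.0513).

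The 2 neuropilins, co-receptors of class 3 semaphorins, moved in opposite directions at d2.5. Nrp1, the Sema3a receptor, was at 104, 122 and 109 CPM in Ctrl+vehicle, 50.7, 49.01 and 50.9 CPM in Ctrl+FGF2 and 65.3, 63.6 and 63.8 CPM in Y/T dKD+FGF2. Nrp2, the Sema3f receptor, was at 140.3, 134 and 142 CPM, 198, 202 and 197 CPM and 174, 162 and 168 CPM in the same order. The libraries of each group stood apart from those of the others for both genes. Log2 fold changes with FGF2 were -1.16 ± 0.05 (SE, adjusted p = 6.47e-19) for Nrp1 and 0.52 ± 0.04 (SE, adjusted p = 9.26e-14) for Nrp2, and with the knockdown 0.36 ± 0.06 (SE, adjusted p = 1.77e-05) and -0.24 ± 0.04 (SE, adjusted p = 9.01e-06). In Ctrl+vehicle, Nrp2 held 47.8% to 52.6% of the summed neuropilin level per kb, and in Ctrl+FGF2 76.2% to 77.3%. At d5 Nrp1 was at 71.8, 73.4 and 75.9 CPM in Ctrl+vehicle, 85.4, 82.8 and 85.8 CPM in Ctrl+FGF2 and 70.2, 70.5 and 74.5 CPM in Y/T dKD+FGF2, higher with FGF2 (0.20 ± 0.04, adjusted p = 0.00131) and lower with the knockdown (-0.24 ± 0.04, adjusted p = 4.45e-04). For Nrp2 the d5 call with FGF2 (0.15, overlapping groups) was lost without Ctrl+FGF2 replicate 1 or 3 or Ctrl+vehicle replicate 2 or 3 (adjusted p up to 0.203) and with DESeq2 (0.0533).

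Among plexins, the receptors of semaphorins, 6 of 8 tested were lower with FGF2 at d2.5 (34.1% of all genes tested). Plxnb2, the most abundant member, was at 1033, 1058 and 1031 CPM in Ctrl+vehicle and 660.3, 662 and 672 CPM in Ctrl+FGF2 (-0.65 ± 0.03, adjusted p = 8.59e-19). Plxnd1, the receptor of Sema3e, was at 166, 175 and 172 CPM in Ctrl+vehicle and 56.2, 56.2 and 56.5 CPM in Ctrl+FGF2 (-1.60 ± 0.04, adjusted p = 1.85e-24). Both pairs of groups were far apart. Plxnb1, the receptor of Sema4d, was at 29.5, 25.00 and 26.3 CPM in Ctrl+vehicle and 8.71, 9.23 and 9.36 CPM in Ctrl+FGF2 at d2.5, and at 7.65, 10.5 and 10.7 CPM and 33.4, 30.1 and 30.6 CPM at d5. Its FGF2 effect thus turned from -1.56 ± 0.09 (SE, adjusted p = 1.77e-15) to 1.69 ± 0.10 (SE, adjusted p = 4.24e-10), a difference between the days of 3.23 ± 0.14 (SE, adjusted p = 5.60e-18). Plxna4 was lower with FGF2 by nearly the same amount on both days, from 10.1, 13.1 and 9.53 to 1.28, 2.95 and 2.41 CPM at d2.5 and from 7.27, 5.75 and 5.79 to 1.04, 1.31 and 1.27 CPM at d5 (-2.31 and -2.35 on the log2 scale). Plxna2 was also lower on both days (-1.61 ± 0.07, adjusted p = 9.45e-20 at d2.5 and -0.46 ± 0.04 (SE, adjusted p = 2.15e-07) at d5). Plxna1 and Plxna3 were the 2 plexins higher with FGF2 at d2.5, by 0.12 and 0.50 on the log2 scale. Plxna3 was outside the rule for named genes and was picked after its values were seen.

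In the knockdown, 2 plexins were called at d2.5, both lower (24.5% of all genes tested were called), and 7 at d5, 5 of them lower (31.7% of all genes tested were called). Plxnb2 was at 591, 588 and 568 CPM in Y/T dKD+FGF2 at d2.5 (-0.19 ± 0.03, adjusted p = 1.28e-05), and at d5 it went from 495, 509 and 513 CPM in Ctrl+FGF2 to 442, 458 and 437 CPM (-0.18 ± 0.03, adjusted p = 3.84e-04). Plxna2 went from 90.7, 95.5 and 89.2 CPM to 59.3, 60.3 and 65.9 CPM at d5 (-0.57 ± 0.05, adjusted p = 6.14e-08). Plxnd1 rose at d5, from 122, 104 and 111 CPM to 143, 154 and 140.3 CPM (0.38 ± 0.05, adjusted p = 2.51e-05). Plxna1 was lower at d2.5 (-0.14 ± 0.03, adjusted p = 0.00236) and higher at d5 (0.17 ± 0.04, adjusted p = 0.00703). The d5 knockdown calls of Plxnb1 (-0.24) and Plxna3 (-0.23) were lost with DESeq2 (adjusted p = 0.0957 and 0.0926). They were also lost without Ctrl+FGF2 replicate 1 or 3 or Y/T dKD+FGF2 replicate 1 or 3 for Plxnb1 (up to 0.116), and without Ctrl+FGF2 replicate 2 or 3 or Y/T dKD+FGF2 replicate 2 or 3 for Plxna3 (up to 0.191). The d5 call of Plxnd1 with FGF2 (0.16) was lost without Ctrl+FGF2 replicate 1 or Ctrl+vehicle replicate 1 (up to 0.120).

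Of the 53 members, 9 passed the filter on neither day. Epha6, Epha10, Ephb1 and Sema5b had 0 counts in all 18 libraries, and Epha5, Plxnb3, Sema4a, Sema4f and Sema6b had 14, 6, 22, 23 and 43 counts in all. Epha8 passed at d2.5 only and Sema3g at d5 only. Efnb3, Epha8 and Sema4d were tested and not called in the FGF2 or knockdown comparison of either day they entered, and they were picked after their values were seen. Against Ctrl+vehicle, Y/T dKD+FGF2 cells had Epha8 called higher at d2.5 and Sema4d called lower at d5. Both calls were lost with DESeq2 (adjusted p = 0.0780 and 0.0960) and in fits that left out a library (up to 0.127 and 0.111). On the genome some members are neighbours (GRCm38): Efna1, Efna3 and Efna4 lie within chr3:89271733-89338028, 32.8 and 10.4 kb apart. All 3 were called lower with FGF2 at d2.5, where 34.1% of all genes tested were lower. Sema3b and Sema3f lie 72.3 kb apart on chromosome 9, and both were lower in the knockdown at d2.5, where 13.6% of all genes tested were lower. Ephb2 and Epha8 lie 93.4 kb apart on chromosome 4, and there Ephb2 was lower with FGF2 at d2.5 (-1.04) while Epha8 was at 0.57 (adjusted p = 0.0917). Whether neighbouring members change together was not tested.

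Genes that act with these families were counted from lists of partners. Of 27 listed partners of Eph and ephrin signalling, 24 were tested at d2.5, where FGF2 called 4 higher and 13 lower (median log2 fold change -0.23, with 67.6% of all genes tested called) and the knockdown 6 higher and 7 lower (median -0.01, with 24.5% of all genes tested called). Rasa1, a Ras GTPase-activating protein that binds EphB receptors, had the largest rise with FGF2 (1.71 ± 0.04, adjusted p = 1.18e-26), followed by Ngef, the guanine exchange factor ephexin (1.13 ± 0.08, adjusted p = 5.15e-14). Arhgef19 (-1.95 ± 0.07, adjusted p = 1.76e-21) and Pdlim5 (-1.56 ± 0.04, adjusted p = 3.54e-25) fell most. In the knockdown, the largest rises were those of Chn2 (0.66 ± 0.12, adjusted p = 8.96e-05) and Nck1 (0.22 ± 0.07, adjusted p = 0.0222), and the largest falls those of the kinases Src (-0.44 ± 0.05, adjusted p = 1.29e-07) and Fyn (-0.40 ± 0.06, adjusted p = 9.93e-06). Of 24 tested partners of semaphorins and plexins, FGF2 called 6 higher and 11 lower (median -0.15), and the knockdown 2 higher and 8 lower (median -0.08), beside the same shares of all genes. L1cam, an adhesion molecule, rose with FGF2 (0.79 ± 0.31, adjusted p = 0.0239), while Chl1, of the same family, fell from 267 counts over Ctrl+vehicle to 13 over Ctrl+FGF2 (-4.33 ± 0.29, adjusted p = 3.36e-14). Mical1, an oxidase that acts on actin, fell with FGF2 (-1.63 ± 0.17, adjusted p = 8.83e-10) and rose in the knockdown (0.79 ± 0.20, adjusted p = 0.00407). Arhgef12 also rose there (0.13 ± 0.04, adjusted p = 0.0120), and the kinase Limk1 (-0.35 ± 0.08, adjusted p = 0.00242) fell.

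Other guidance families were also mostly lower with FGF2 at d2.5. Of 12 tested genes of the netrin, slit and RGM families, 10 were lower and 2 higher at d2.5 (34.1% and 33.5% of all genes tested), with a median log2 fold change of -0.67. Draxin, a secreted netrin antagonist, had 81 to 114 counts in each Ctrl+vehicle library and 0 in each Ctrl+FGF2 library. It was at least 96.0-fold lower when 3 counts over the group are taken as the floor. Draxin was the lowest of the list as fitted and at that bound, so the list's median of -0.67 could not move with it. Ntng1, a lipid-anchored netrin, fell from 190 counts to 14 (-3.74 ± 0.28, adjusted p = 2.86e-13). Slit2, a ligand of Robo receptors, rose (1.06 ± 0.04, adjusted p = 2.04e-19), as did netrin-1, Ntn1 (0.68 ± 0.17, adjusted p = 8.53e-04). In the knockdown, Ntn1 (-0.54 ± 0.17, adjusted p = 0.0223) and Rgma (-0.43 ± 0.14, adjusted p = 0.0229) were lower and the netrin receptor Unc5c higher (0.33 ± 0.06, adjusted p = 9.02e-05), with 1 gene called higher and 3 lower in all (24.5% of all genes tested were called). At d5 FGF2 called 10 of 23 Eph partners higher and 4 lower, 5 of 22 semaphorin partners higher and 7 lower, and 3 of 13 netrin, slit and RGM genes higher and 8 lower, where 47.2% of all genes tested were called. The d5 knockdown called 4 higher and 7 lower, 6 higher and 5 lower, and 4 higher and 6 lower in the same order, where 31.7% of all genes tested were called.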

How the data were processed

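Poly(A) RNA-seq of 18 libraries was used. The values deposited by the authors are raw counts, with no normalization. The labels' processing notes name FastQC, STAR, Picard, featureCounts and mm10 without versions. The files have the layout of STAR's gene counts, with unstranded counts and 1 column a strand. Column 4 was used, which held 96.0% to 96.6% of the counts assigned to either strand, and entries naming no gene (27.0% to 34.4%) were left out of library sizes.

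Each day was fitted separately over its 9 libraries in R 4.3.3 with edgeR 4.0.16 with limma 3.58.1 (filterByExpr with a minimum count of 10, TMM factors, quasi-likelihood test), and effects were compared between days in 1 fit of both days. P-values were Benjamini-Hochberg adjusted over all genes tested and called under 0.05. The standard error of a log2 fold change was taken as its size over the root of the F statistic. Scripts were tested on simulated data.

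Members and gene lists were chosen with earlier results of these data known. Named were, in each family, the 3 called members with the largest change in each FGF2 and knockdown effect, the most abundant member, both neuropilins and members that FGF2 called in opposite directions. Of partner lists, the 2 largest rises and falls at d2.5 were named. A partner gene that this rule names is not reported here. DESeq2 1.42.0, other factors, filters and sets of libraries, unstranded counts, a replicate block, stricter thresholds and leaving out each library were tried. Deviations from group means of libraries sharing a replicate number correlated between -0.124 and 0.050 at d2.5 and between -0.132 and 0.315 at d5. Those with different numbers gave -0.047 to 0.152 and -0.305 to 0.120. Between d5 Ctrl+vehicle and Ctrl+FGF2, replicates 1 and 2 gave 0.280 and 0.315 with the same number and -0.305 and -0.280 when crossed. Pairing there was not settled. The main fits took no pairs, and the block fit is given below. Promoter windows are from RefSeq (GRCm38.p6), and 47 of 53 members matched. Intervals of count ratios are exact at a confidence level of 0.95 and cover counting error only.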

Additional observations from a re-analysis of the deposited data

Results flagged for a closer look

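The effect of FGF2 differed between the days for 33 members, by the interaction term of the joint fit (edgeR, adjusted p under 0.05). Values are the log2 fold change at d5 minus that at d2.5. It was higher at d5 for 25 members, with differences of Sema6d 4.13, Plxnb1 3.23, Plxnc1 2.72, Sema3c 2.31, Sema6c 2.23, Epha4 2.13, Efna4 1.76, Plxnd1 1.74, Ephb6 1.69, Sema3g 1.56, Sema6a 1.44, Sema3e 1.42, Ephb3 1.38, Sema3d 1.36, Nrp1 1.33, Sema4g 1.25, Plxna2 1.13, Efnb1 1.01, Sema3b 0.90, Efna1 0.80, Plxnb2 0.68, Sema3f 0.67, Sema4c 0.67, Ephb4 0.62 and Sema4b 0.50. It was lower at d5 for 8 members, with differences of Sema7a -2.59, Sema3a -1.55, Efnb2 -1.27, Sema5a -1.14, Plxna3 -0.49, Epha3 -0.46, Nrp2 -0.40 and Plxna1 -0.19. The difference of Sema3e was lost without d5 Ctrl+FGF2 replicate 2 (0.99, adjusted p = 0.118) and with DESeq2 (0.0533). That of Sema3g rested on few counts at d2.5 and was lost in 8 of the fits without 1 library (replicates 1 and 2 of Ctrl+FGF2 and of Ctrl+vehicle at d2.5, replicates 1 and 3 of both at d5, adjusted p up to 0.193) and with DESeq2 (0.0714).

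The knockdown effect differed between the days for 16 members by the same test. It was higher at d5 for Ephb2 2.05, Sema7a 0.95, Epha7 0.76, Epha2 0.54, Efnb2 0.49, Plxnd1 0.39, Plxna1 0.31 and Nrp2 0.23, and lower at d5 for Sema3d -1.53, Sema6d -1.44, Epha3 -0.78, Plxna2 -0.71, Nrp1 -0.60, Ephb6 -0.56, Sema3f -0.41 and Efna5 -0.22. Single libraries decided 3 of these differences. Sema7a was lost without d2.5 Ctrl+FGF2 replicate 1 (0.80, adjusted p = 0.107). Efna5 was lost without d2.5 Y/T dKD+FGF2 replicate 3 or replicate 2 of d5 Ctrl+FGF2 or d5 Y/T dKD+FGF2 (up to 0.0658). Nrp2 was lost without replicate 2 of d2.5 Ctrl+FGF2, d2.5 Y/T dKD+FGF2 or d5 Ctrl+FGF2 (up to 0.0670). Day is also the labelled batch, and the 2 cannot be told apart. With 3 libraries a group, no library was tested as a far one. Replicates of a group were compared in pairs by the chi-square per gene of their counts, which ranged from 1.25 to 6.41. In d2.5 Ctrl+FGF2 it was 1.25 between replicates 1 and 3, and 3.70 and 2.83 for the pairs with replicate 2. The value of 6.41 was between replicates 1 and 2 of d5 Ctrl+vehicle.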

How the results depend on the processing

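Of 224 member values past the threshold, 196 stayed past it in every alternative other than a stricter threshold, 28 lost it when 1 library was left out, and 19 lost it in another alternative, all 19 with DESeq2. None of the 224 changed sign. Of 119 values not past it, 34 changed sign in some alternative and 22 gained it. Asking for at least 2-fold moved the counts of members to 2 higher and 18 lower for FGF2 at d2.5, 3 higher and 4 lower for FGF2 at d5, 1 higher and 0 lower for the knockdown at d2.5, 2 higher and 2 lower for the knockdown at d5, 3 higher and 19 lower for the knockdown with FGF2 against vehicle at d2.5, and 2 higher and 7 lower at d5. Without 1 library at a time, members called higher and lower ranged over 9 to 10 and 26 to 27 for FGF2 at d2.5, 15 to 18 and 12 to 15 for FGF2 at d5, 5 to 6 and 8 to 11 for the knockdown at d2.5, 7 to 9 and 13 to 18 for the knockdown at d5, 8 to 9 and 29 to 30 for the knockdown with FGF2 against vehicle at d2.5, and 9 to 11 and 16 to 19 at d5. For the differences between days they ranged over 24 to 26 and 8 to 10 (FGF2) and 7 to 8 and 8 to 10 (knockdown). The cause of these changes was not tested. Genes with few counts limit what depth can show, as in Plxnc1 at d2.5.

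With the replicate number as a block, members called higher and lower were 9 and 26 for FGF2 at d2.5, 17 and 14 for FGF2 at d5, 6 and 10 for the knockdown at d2.5 and 7 and 17 for the knockdown at d5. The block lost the knockdown calls of Ephb2 at d2.5 (adjusted p = 0.0521, edgeR) and Efna1 at d5 (0.0586) and the FGF2 day difference of Sema3g (0.0604). It gained 4 others.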
